A study of Drosophila melanogaster with 2 samples.

Results

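CG11696 encodes a C2H2 zinc finger protein of the ZAD family, and its neighbour CG11695 encodes a related one. Peaks of the tagged CG11696 protein were taken at these genes and at 8 further genes of the family, prg, pita, ZIPIC, M1BP, wek, trem, grau and hang, which makes 10 of 13968 protein-coding genes. The genes were chosen by name, and a peak was counted where its summit lay in the gene body or within 2 kb of it. The study precipitated chromatin from whole Drosophila melanogaster embryos of 0 to 24 h that carried an insertion expressing CG11696 fused to eGFP, with an antibody against the green fluorescent tag. The series had 1 group of 2 biological replicates, both from the same strain, so no condition was compared with another. A collection of whole embryos mixes all tissues and stages of that window. The labels used here name neither the promoter of the transgene nor any flanking sequence of the locus that it may carry.

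The ZAD, or zinc finger-associated domain, is a short domain at the start of the protein in which pairs of cysteines hold a zinc ion, and it lets family members form dimers. The family is much expanded in insects, where most members carry a row of C2H2 fingers that bind DNA. Pita and ZIPIC are insulator proteins that recruit the cofactor CP190, and M1BP binds the core promoter element called motif 1 at genes with paused polymerase. Wek is an adaptor of Toll signalling, trem is needed to start meiotic recombination, grau activates the meiotic gene cortex, and hang is known for its part in ethanol tolerance. No role is given here for CG11695 or prg.

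All 10 proteins, translated from the RefSeq coding sequences, held 2 cysteine pairs, each with 2 residues between its cysteines, that lay 30 to 60 residues apart and began in the first 120 residues and before the first finger. The same held for 21 of 22 named family genes (Neu2 was the exception), against 46.2% of the 169 fly proteins with 5 or more fingers. This looser pattern was chosen after a stricter pattern had been seen to find 8 of the 22, so the comparison is a description. The number of fingers ran from 5 in M1BP and trem to 16 in hang. CG11696 has 664 residues and 9 fingers, and CG11695 has 544 residues and 8 fingers. The pair was identical at 249 of 535 aligned positions, or 46.5%. The next most similar of the 10 was grau, at 34.8%, and the least similar was pita, at 24.2%.

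The peaks that carry the results below lay in the following stretches of the plus strand of dm6 (Release 6), read from the RefSeq genome and centred on the summits except where they stop at an annotated UTR. Capitals mark a match to an 8-mer that was more frequent in the peaks of the series than in their flanks. The shared peak of CG11696 and CG11695, the strongest at the tagged gene in the pooled data, lay in an AT-rich stretch at chrX:11576712-11576812.
CG11696/CG11695: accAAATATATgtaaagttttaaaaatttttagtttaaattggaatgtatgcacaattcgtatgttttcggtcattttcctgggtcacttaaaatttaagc
The 2 peaks that passed the threshold at prg lay at chr2L:8463279-8463379, in an intron of Agpat2, and at chr2L:8464250-8464350, just before the start of prg.
prg, distal: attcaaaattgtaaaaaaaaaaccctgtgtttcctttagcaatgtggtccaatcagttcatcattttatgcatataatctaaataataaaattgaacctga
prg, proximal: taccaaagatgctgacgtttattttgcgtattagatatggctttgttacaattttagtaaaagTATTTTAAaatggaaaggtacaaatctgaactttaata
The strongest peak of the wider family, between D19A and D19B at chr3L:6185116-6185188, and the peak inside the coding sequence of wek at chr2L:15767817-15767917 are shown for contrast, since both are richer in G and C.
D19A/D19B: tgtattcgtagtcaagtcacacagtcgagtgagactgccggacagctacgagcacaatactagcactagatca
wek: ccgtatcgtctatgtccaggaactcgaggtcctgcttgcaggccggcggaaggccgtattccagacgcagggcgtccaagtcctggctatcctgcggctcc

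The deposited lists order peaks by their irreproducible discovery rate (IDR), a measure of how well the rank of a peak holds between a pair of peak sets. The authors' IDR score runs to 1000, and 830, the lowest score in the thresholded lists, corresponds to an IDR of 0.01. Thresholded lists hold peaks past that limit, and ranked lists hold weaker ones as well. The match is not complete, since 94 peaks past the limit in the conservative ranked list are absent from the thresholded one. The conservative and optimal lists rest on pooled reads, and each replicate has lists of its own. Their lengths differ, from 2081 to 3752 thresholded peaks and from 49512 ranked peaks in replicate 1 to 150853 in the optimal list, so the short lists can hold fewer weak peaks. Peak strength is given as the authors' signal value, which is not scaled between lists, and the read depth is unknown. A mean ± SD is over the values that the 2 replicates list for the same conservative peak.

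In the conservative thresholded list 2 of the 10 genes, prg and pita, had a summit, where 22.4% of all protein-coding genes had one. CG11696 and CG11695 had none there. In the thresholded list of replicate 1 alone 3 genes had a summit (CG11696, CG11695 and prg, background 17.4%), and in that of replicate 2 alone 1 gene did (prg, background 17.8%). The optimal thresholded list held summits at 4 genes, CG11696, CG11695, prg and M1BP, against a background of 25.8%. In this list and in that of replicate 1, CG11696 and CG11695 were both counted through the same summit. Only prg was in all 4 of these lists. These counts rest on 1 to 4 genes and are not read as an enrichment or a depletion.

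Ranked peaks were common everywhere. The conservative ranked list held a summit at 9 of the 10 genes (background 92.5%), the list of replicate 1 at 9 (background 90.8%) and that of replicate 2 at all 10 (background 93.9%). The gene without one in the first pair of lists was ZIPIC. The 10 genes had 67 distinct conservative ranked summits, with a median of 6.5 per gene beside 6 per gene over all protein-coding genes. The median of the highest pooled signal value was 63.0 over the 9 genes with a summit and 46.2 over all genes with one. Of the 67 summits 36 lay in a coding exon (53.7%) and 14 in an intron (20.9%). Of the 79174 summits at all protein-coding genes 24.4% lay in a coding exon and 51.4% in an intron. The class is that of any gene at the summit, so some of the 36 lie in neighbours such as Ku80, CG4854 and CG30291. Some of the 67 are also weaker summits matched to the same replicate peaks as a stronger one. The shares thus do not describe the coding sequence of the 10 genes alone. The median lengths of the genes were alike, 2182 bp and 2164 bp. The shares count summits, however, so genes with many summits weigh more in them than in a median over genes. What underlies the difference in shares was not tested.

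The tagged gene CG11696 (FBgn0030314) spans chrX:11573731-11576152 on the plus strand. Its strongest peak in the pooled data, chrX:11576590-11576933 with the summit at 11576762, lay outside the gene, 610 bp past its 3' end. The summit falls in the 263 bp between the start sites of e(y)2, a subunit of the SAGA coactivator and of an mRNA export complex that is transcribed in the other direction, and of CG11695, whose start is 121 bp away. One peak thus stands for all 3 genes, and it cannot be assigned to one of them. Its pooled signal value was 90.4, above 97.8% of the conservative ranked peaks. In the list of replicate 2 the strongest summit in the window of CG11696 was instead one inside the gene, at 11574210, with 29.0.

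The replicates differed at the peak shared with CG11695. Its signal value was 65.5 in replicate 1 and 21.0 in replicate 2 (43.2 ± 31.4, SD, n = 2), a log2 ratio of -1.64 of replicate 2 to replicate 1. In the list of replicate 1 it had the highest score, 1000, and passed the threshold. In replicate 2 its score was 187, and in the conservative ranked list it was 67, far below 830. The optimal thresholded list, in contrast, held it with a score of 1000. A ratio this low or lower was found at 1 of 3130 conservative thresholded peaks with both values (0.0319%), which are selected for agreement of the replicates. Among 1150 ranked peaks within 1.2 times of its pooled signal value it was found at 9 (0.783%), and among all 48185 ranked peaks with both values at 3027 (6.28%). The median log2 ratio over those 48185 peaks was -0.08 (SD 0.86).

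Inside CG11696 the replicates were closer together. A summit at 11574168, in a coding exon 437 bp from the start of the gene, had a pooled signal value of 70.0. Its replicate values were 28.5 and 29.0 (28.7 ± 0.386, n = 2). Its score of 640 was the highest of the tagged gene in the conservative ranked list, though still below the threshold. A further coding exon summit at 11575428 had 31.0 in the pooled data and 15.3 and 14.3 in the replicates, with a score of 104. The remaining summits in the gene, at 11574371 (pooled 6.76) and 11575643 (pooled 4.24), were matched to the same replicate peaks as these stronger ones. Past the 3' end a summit in the coding exon of e(y)2, at 11576295, had a pooled value of 30.9 and replicate values of 19.2 and 22.4. Upstream a weak summit at 11572668, 39 bp from the start of Reepl1, had a pooled value of 16.5 and a value in replicate 2 only, 13.6. The nearest conservative thresholded summit to CG11696 was 13.1 kb from the gene, near PGRP-SA.

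**Figure D1:**
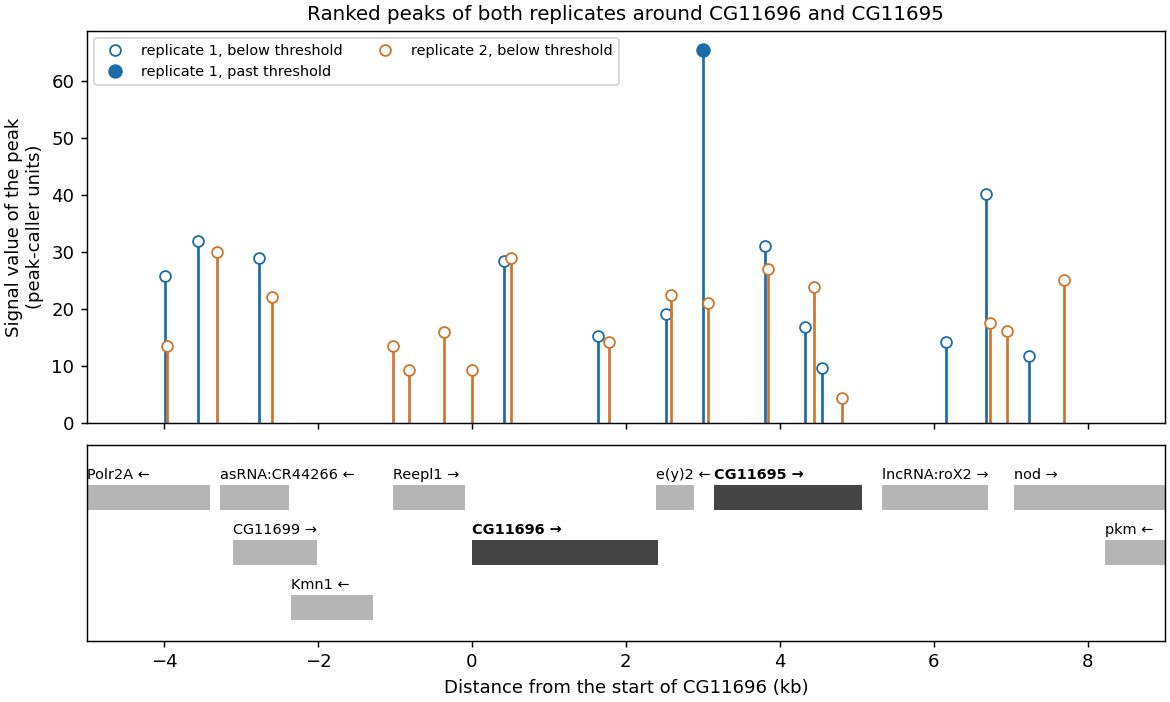
Ranked peaks of replicate 1 (blue) and replicate 2 (orange) around CG11696 and CG11695, with the distance from the start of CG11696 in kb on the x axis and the signal value of each peak in its own replicate list, in peak-caller units, on the y axis; filled points passed the threshold of that list and grey or black bars below are genes with their direction. The peak between e(y)2 and CG11695 reaches 65.5 in replicate 1 and 21.0 in replicate 2 and is the only one shown past the threshold, while the peak inside CG11696 stands at 28.5 and 29.0.

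CG11695 (FBgn0030316) spans chrX:11576883-11578806 and begins 730 bp after CG11696 ends. Besides the shared peak before its start, it had a summit in a coding exon at 11577564, 681 bp from its start, with a pooled value of 64.1. The replicates listed 31.1 and 27.1 there (29.1 ± 2.87, n = 2), and the score was 598. A second coding exon summit, at 11578215, had a pooled value of 44.2 and a score of 43. The matched replicate peaks had 9.74 and 23.9, but replicate 1 also listed a summit of 16.9 at 11578088, nearer to that of replicate 2 at 11578154, so the gap depends on which of its peaks is taken. Past the 3' end, just beyond roX2, a long noncoding RNA of dosage compensation, a summit at 11580438 lay 334 bp from the start of nod. It had a pooled value of 58.3 and replicate values of 40.2 and 17.6, a log2 ratio of -1.19. Its score was 692 in replicate 1 and 108 in replicate 2, so it passed in neither. Of the peaks around the gene pair with both values, the intergenic ones, before CG11695 and before nod, were higher in replicate 1. Those in the first long coding exons of both genes differed little. The intergenic summit near Reepl1 had a value in replicate 2 only, and the matched peaks at 11578215 were higher in replicate 2. These few peaks are not read as a pattern by class.

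By the distance of the log2 replicate values over 2 replicates, the genes whose strongest peak was most like that of CG11696, among 9794 genes with both values, were CG11695 and e(y)2, which share the peak. The next were ey and myo on chromosome 4, which share a peak with 57.9 in replicate 1 and 21.4 in replicate 2 (distance 0.18). CG11200 on 2R followed with 67.9 and 24.0 (distance 0.20). These genes were named by likeness of 2 values alone.

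The highest pooled signal value among the 10 genes was at prg (FBgn0285971), chr2L:8464488-8466694 on the plus strand. Its distal summit, at 8463329, lay 1159 bp before the gene in an intron of Agpat2. The pooled value was 119.9, and the replicates listed 42.9 and 73.9 (58.4 ± 21.9, n = 2). It passed the threshold in both replicates, in the conservative list and in the optimal list. Its proximal summit, at 8464300, lay in intergenic sequence 188 bp before the start. There the pooled value was 83.5 and the replicate values were 51.9 and 36.0 (43.9 ± 11.2, n = 2). This one passed in replicate 1 but not in replicate 2, where its score was 484. The replicates thus ranked the pair of peaks in opposite order. The optimal thresholded list added a weak summit in the 5' UTR, 12 bp from the start, with a pooled value of 15.9, which carries the same score as the stronger peak it overlaps. Within the gene the conservative ranked summits in coding exons had pooled values from 9.22 to 27.0.

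**Figure D2:**
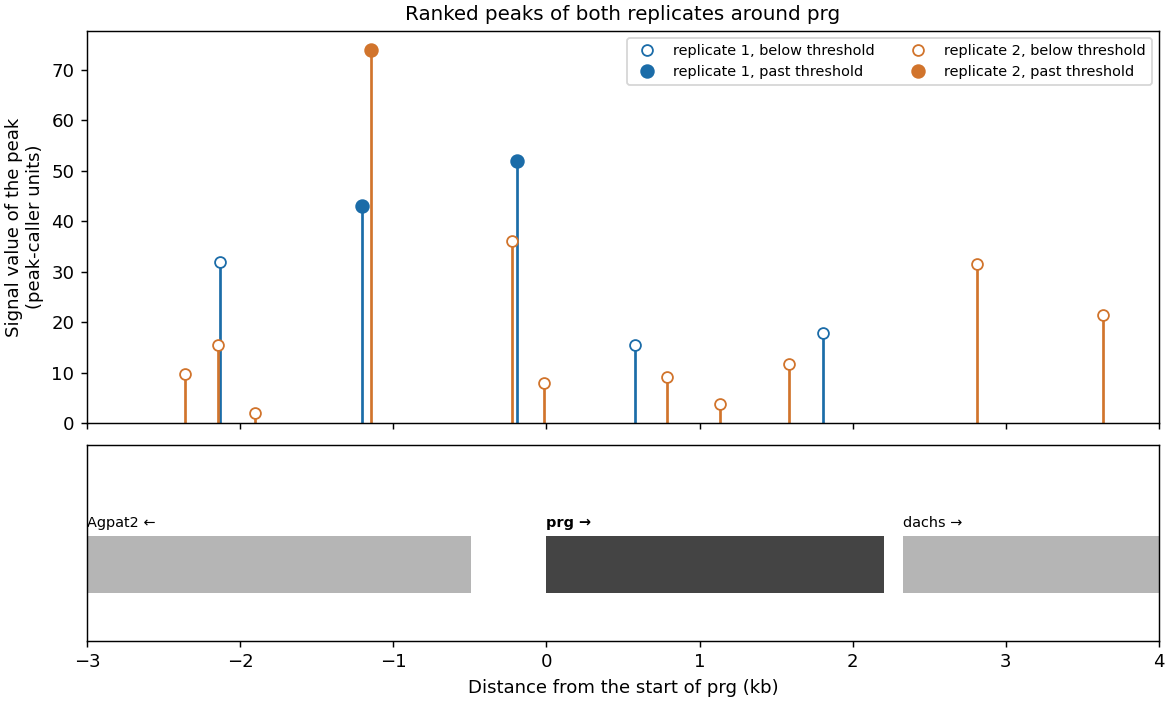
Ranked peaks of replicate 1 (blue) and replicate 2 (orange) around prg, with the distance from its start in kb on the x axis and the signal value in each replicate list, in peak-caller units, on the y axis; filled points passed the threshold and bars below are genes with their direction. The distal peak is filled in both replicates, at 42.9 and 73.9, and the proximal one in replicate 1 only, at 51.9 against 36.0.

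The insulator protein genes and M1BP lay close to the threshold or far below it. The pita summit, at chr2R:23554395-23554738, lay in the 5' UTR 145 bp from a start of the gene, with a pooled value of 63.0. It passed with a score of 843, just inside the limit. Replicate 2 listed 41.6 there with a score of 508, while the matched interval was not found in the list of replicate 1. That list held no peak overlapping it, and its nearest summit in the window, at 23555261 with 21.8, lay in a coding exon of Rrp4. In the optimal ranked list the 5' UTR peak of pita scored 337 and did not pass. The other strong peak in the pita window lay at its neighbour wmd, 72 bp from that gene's start, with a pooled value of 62.6 and 42.9 in replicate 1. A further summit in a coding exon of Dcp-1, the effector caspase gene that overlaps the pita locus, had a pooled value of 53.9 and replicate values of 27.6 and 28.9 (28.3 ± 0.917, n = 2).

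M1BP was just outside the limit. Its strongest summit, at 8732176 on 3R, lay 478 bp before its start and 85 bp from the start of CG8202, in an intron of that gene. The pooled value was 63.3, and the replicates listed 37.7 and 30.9 (34.3 ± 4.82, n = 2). The conservative score was 829 and the optimal score 878, so the peak is in the optimal thresholded list only. ZIPIC had no summit in the conservative ranked list or in that of replicate 1. Replicate 2 listed 5, the highest at 23.0 in a coding exon of ZIPIC, and the optimal ranked list held 4, the highest at 30.2.

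The strongest peak at wek (chr2L:15766133-15768349) lay within the gene, in a coding exon 482 bp from its start. The replicates gave nearly the same value, 31.0 and 30.4 (30.7 ± 0.417, n = 2), with a pooled value of 58.2 and a score of 736. Ku80, the neighbour upstream, had 3 summits in coding exons within the window, with pooled values from 23.3 to 48.4. The meiotic gene trem had its strongest summit 263 bp before its start and 251 bp from the start of idc, with a pooled value of 44.2 and replicate values of 16.9 and 22.0 (19.4 ± 3.62, n = 2). The 2 conservative summits inside trem had pooled values of 21.8 and 9.47. Both were matched to a peak of 3.34 in replicate 2, which also listed 13.5 in that coding exon, at 20030393.

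At grau, the other meiotic gene, the strongest summit lay in a coding exon of the neighbour CG30291, with a pooled value of 36.0 and replicate values of 13.1 and 9.70 (11.4 ± 2.38, n = 2). The single summit inside grau had a pooled value of 16.2. Both had the score 21, the lowest in that list. The long gene hang, of 15624 bp, held 13 conservative ranked summits in its body and 18 with the 2 kb on either side, more than any other of the 10. Its strongest was in an intron 3883 bp from the start, with a pooled value of 60.8 and replicate values of 35.0 and 20.9 (28.0 ± 9.91, n = 2). A summit 5 bp from its start had a pooled value of 42.4, and one just past its 3' end had 50.1.

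Ordered by the mean of the replicate values of the strongest peak, the 8 genes with both values ran from prg (58.4) through CG11696 and CG11695 (43.2, the same peak), M1BP (34.3), wek (30.7), hang (28.0) and trem (19.4) to grau (11.4). Of the 6 neighbouring pairs of different peaks in that order 5 differed by less than the larger of their SDs, and the pair trem and grau did not. That separation was lost when the strongest summit of each replicate was taken in place of the matched peaks, which gave 17.4 at grau and left 19.4 at trem. With 2 replicates the SDs themselves are imprecise. The order holds for the strongest pooled peak of each window. That peak lay nearer to the start of another gene at prg, CG11696, M1BP and grau. At trem the pooled summit lay 251 bp from the start of idc and 263 bp from that of trem. The summits of this peak in replicates 1 and 2 lay nearest to trem, at 256 bp and 241 bp.

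**Figure D3:**
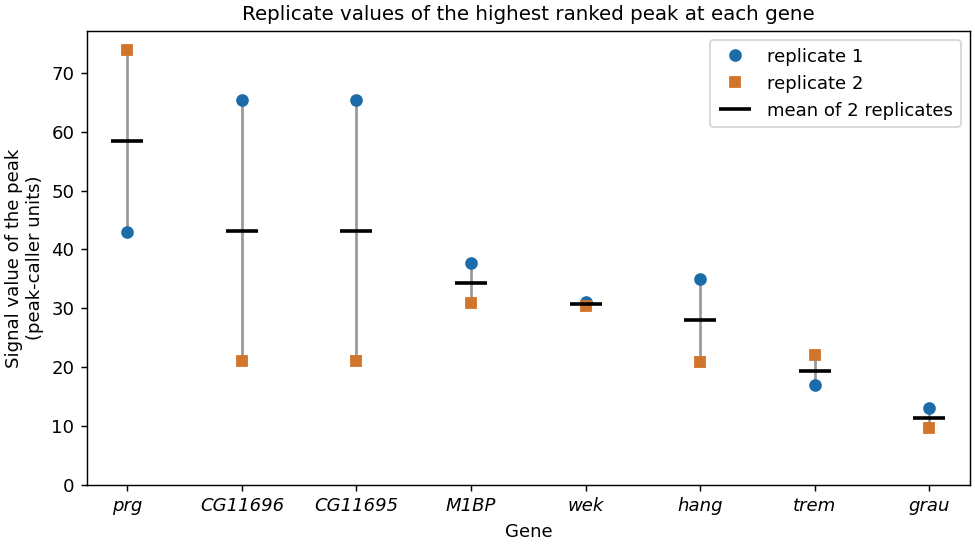
Signal value, in peak-caller units, of the strongest ranked peak at each of 8 genes in replicate 1 (blue circles) and replicate 2 (orange squares), with the mean of both as a black bar. The values of wek nearly coincide at 31.0 and 30.4, and those of the peak shared by CG11696 and CG11695 lie furthest apart, at 65.5 and 21.0.

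The list was widened to 22 named family genes, of which 5 had a conservative thresholded summit (22.7%, near the background of 22.4%). Besides prg and pita these were D19A, D19B and Sry-delta, an activator of bicoid. The peak between D19A and D19B far exceeded the others. Its pooled signal value was 863, and the replicates listed 372 and 471 (422 ± 70.1, n = 2). Its summit lay 23 bp from the start of CG43293, 246 bp before the start of D19B and 664 bp past the end of D19A. D19A had a second peak 86 bp before its own start, with 49.8 and 44.6 in the replicates (47.2 ± 3.69, n = 2). At Sry-delta the peak lay 1386 bp past the gene and 111 bp from the start of RpL32, a ribosomal protein gene, with 98.9 and 112 in the replicates (106 ± 9.57, n = 2). Sry-beta and Odj had no conservative thresholded summit within 2 kb, with highest pooled values of 64.5 and 65.4.

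**Figure D4:**
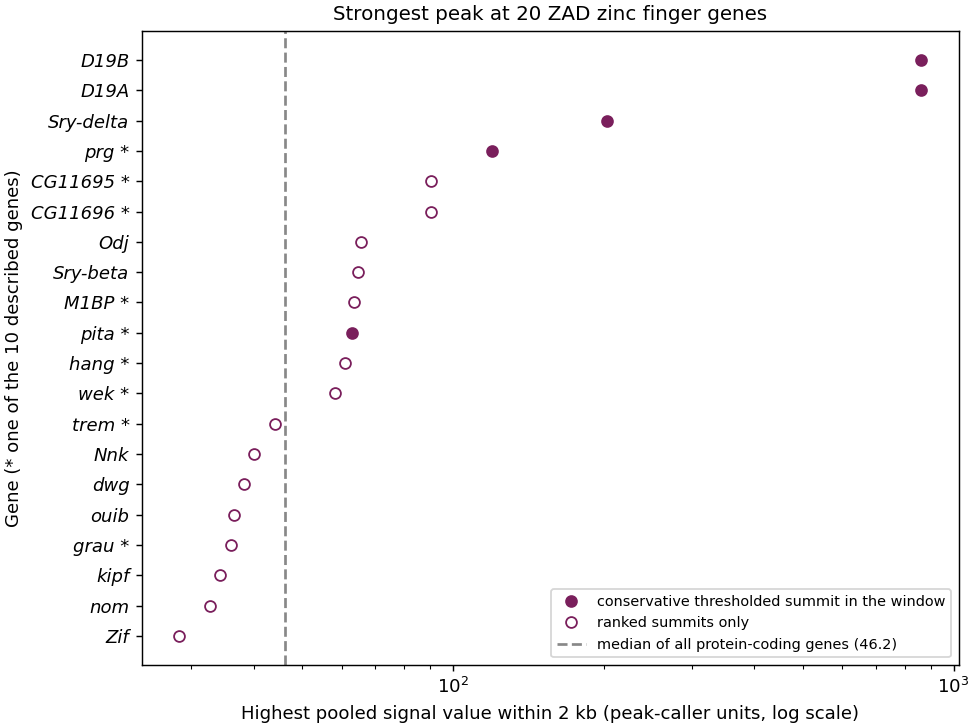
Highest pooled signal value within 2 kb of each of 20 named ZAD zinc finger genes that had a conservative ranked summit, in peak-caller units on a log axis, with one row per gene; filled points had a conservative thresholded summit in the window, and the dashed line is the median over all protein-coding genes with a summit (46.2). D19A and D19B share the highest value, 863, ahead of Sry-delta at 203 and prg at 119.9, and pita passed the threshold at 63.0 while CG11696 and CG11695 did not at 90.4.

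The sequence around the strongest peak of each gene and the second prg peak was set beside that of all peaks. Within 50 bp of these 9 summits none held GGTCACACT, the core of motif 1, searched on both strands as were all letters here. None held TATCGATA, known as the DRE, and none held CACACACA, a simple repeat. GAGAGAG, bound by the GAGA factor, was also absent, as were TATAAA, the letters of the TATA box, and CAGGTAG, the site of Zelda. The TATA box letters were in 18.9% of the conservative windows and the others in at most 2.20%, so their absence from 9 windows says nothing about the factors. The 8-mer AAATATAT, printed in capitals above, was in the window of the peak shared by CG11696 and CG11695, as in 5.73% of conservative and 2.10% of sub-threshold windows. The 8-mer TATTTTAA was in that of the proximal prg peak, as in 5.76% and 1.39%. The remaining one, AAAATATT, was in none, against 6.43% and 2.28%. These 8-mers overlap in AT-rich sequence and were chosen without the peaks of the 10 genes.

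The G and C content of the window was 26.7% at the shared CG11696 and CG11695 peak and at both prg peaks. It was 32.7% at trem, 33.7% at pita, 40.6% at hang, 41.6% at M1BP, 49.5% at grau and 63.4% at wek. The median was 33.7% over 3143 conservative thresholded peaks and 45.5% over 91996 sub-threshold peaks. The peaks with the highest values of the 10 genes were thus those with the lowest G and C content, as printed in the sequences above. The windows at wek and grau, both with a summit in a coding exon, stood above both medians. Among the peaks of the wider family the window held 41.6% at D19A and D19B, 30.7% at the second D19A peak and 42.6% at Sry-delta, so the strongest family peak was not among the most AT-rich.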

How the data were processed

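Peak lists on dm6 were deposited for each of 2 replicates and for the pooled data. The authors' IDR score runs to 1000 (830 is the lowest in the thresholded lists), the deposited signal value is in the units of their peak caller, and the IDR was deposited by the authors as its −log10. Per the labels, chromatin was sonicated to 200 to 800 bp. The sources used here do not give the aligner, the peak caller or the read depth, so precision is given only as the spread of 2 replicates. Summits were assigned to genes of Ensembl release 115 within 2 kb, and each was classed as intergenic, intronic or exonic, with UTR and coding exons told apart and 5' UTR taking priority. Replicate values were read from each replicate's own ranked list at the intervals the conservative list carries. The interval was found for 59219 of 96052 peaks in replicate 1 and 75941 in replicate 2, and a value is missing otherwise. Sequences and coding sequences came from the RefSeq copy of Release 6. The members and lists were chosen with earlier results of these data known, and the named genes are the 10 members, the family genes with a conservative thresholded summit and the 5 genes most like CG11696. Sry-beta, Odj and Neu2, and the neighbouring genes, were named after their values were seen. With 1 group no test was run, and counts stand beside the share of all protein-coding genes. Python 3.11.15, numpy 2.4.6, pandas 2.3.3 and Biopython 1.88 were used, and the window rule was tested on simulated data.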

Additional observations from a re-analysis of the deposited data

How the results depend on the processing

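The count of the 10 genes with a conservative thresholded summit, 2, became 1 with no window, 4 with a window of 5 kb (wek and trem added), 4 with the optimal list and 1 with the stronger 50% of peaks. The lists of single replicates, each leaving out the other replicate, gave 1 to 3. The count of 5 among the 22 named genes became 1 with no window and 9 with 5 kb, and 4 to 6 with single replicates. The share of all protein-coding genes at these other windows, or with the stronger 50% of peaks, is not given here. A wider window can only add genes, so these changes are not read as a result about the family. An alternative added after seeing the data was the 40 genes whose protein holds the stricter ZAD pattern. Of these 40 genes 6 had a conservative thresholded summit, where 22.4% of all protein-coding genes had one. That pattern finds 8 of the 22 named genes and 2 of the 10, so its 6 of 40 is not the same measure as 5 of 22. The mean at grau was 11.4 for the matched peak and 17.4 with the strongest summit of each replicate, which no longer set it apart from trem. Of 46 alternatives 38 stayed within 1.5 times of a count or 1 SD of a value, and 8 did not. Most of those 8 were alternatives to the count of the 10 genes. Values of single genes made up 16 of the 46, and 15 of these stayed. Some of the 15 are highest pooled values in the optimal list, which repeats the same pooled peaks with the same values, so their agreement says little. With counts this small 1 gene decides. No paired analysis was possible because there is 1 group. Depth is unknown, so a missing peak is not evidence of no binding.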
